A study of Mus musculus with 34 samples.

Results

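Whole pancreas of adult mouse was compared with 7 other adult tissues by the methylation of CpG islands. It is represented by 2 of the 34 arrays of the series, the arrays whose labels name the tissue as pancreas. They were set against all 14 arrays of brain, colon, kidney, liver, lung, muscle and spleen, 2 of each. By the labels and the study's methods all 16 DNAs come from C57Bl/6 mice of 3 months, without a transgene or treatment. Both pancreas DNAs are male, as are both of colon, while both lung DNAs are female and the other 5 tissues have 1 of each sex. Nothing in the labels states that replicates are separate animals, so the p-values below measure the spread between these DNAs, which may be technical.

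CpG islands are stretches of DNA rich in CG dinucleotides, the sequence that is methylated in mammals. Most islands lie at gene promoters and stay free of methylation in all tissues, whereas a minority, such as those of germline genes, are methylated in somatic cells. Some islands far from a promoter differ in methylation between tissues. The pancreas is mostly acinar tissue, which makes digestive enzymes under the factors Ptf1a, Rbpjl and Bhlha15. It also holds ducts and the islets of Langerhans, whose β cells make insulin and whose α cells make glucagon. An array of whole pancreas averages over these cells, so that methylation in a larger share of cells and heavier methylation in each cell cannot be told apart.

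In the assay, methylated DNA immunoprecipitation (mDIP), fragments bound by an antibody against 5-methylcytidine are hybridised together with the input DNA. The value of a probe is the log10 ratio of bound over input, turned into a Z-score over its array. Averaged over an island of at least 3 probes, it gives the island methylation score (IMS). The study took its Z-scores by the melting temperature of the probes, a step left out here, so these scores differ from the study's own while the same limits are used. Scores below 0 are the range of unmethylated islands, and islands above 0.75 are counted as methylated. Chromosomes X and Y were left out, and 13238 islands were scored on every adult array, with 3 to 42 probes and a median of 6. The scores hold no measure of RNA, so the labelled tissue could not be checked against the transcripts of its markers.

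The arrays of pancreas stood within the range of the others in quality. The median input signal was 4.75 and 6.73 times its background in the pancreas arrays, against 3.07 to 6.98 over all 16. Of the probes, 86.9% and 93.7% had an input well above background, against 62.4% to 99.3%. The pancreas arrays correlated with each other at r = 0.938 across islands. This is a description, since islands are not independent and all arrays share probes. The other tissues had 0.838 to 0.96 between their own replicates. Pancreas replicate 1 reached 0.939 with 1 kidney array, so across all islands the pancreas arrays did not stand apart from the rest. No other adult array was scanned on the slide or on the day of either pancreas array, so for these arrays tissue and scan day cannot be told apart.

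The number of methylated islands in pancreas was like that of other tissues. The pancreas arrays had 1342 and 1583 islands above 0.75, and the 14 others had 1257 at the lowest, 1487 at the median and 1647 at the highest. The means were 1462 ± 170 (SD, n = 2) and 1478 ± 127 (SD, n = 14), and the two-sided exact permutation test over all 120 splits gave p = 0.875. The smallest p that 120 splits allow is 0.00833. Below 0 lay 9140 and 8815 islands in pancreas, against 8345 to 9934 with a median of 9135.5 in the others (p = 0.542, same exact test). Both pancreas counts lay inside the range of the other tissues.

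A small set of islands separated pancreas from the mean of the 7 tissues. In limma's moderated test, with 1 mean per tissue and Benjamini-Hochberg adjustment over all islands, 8 islands passed an adjusted p of 0.05. They are 0.0604% of the islands tested. Pancreas was higher at 6 of them and lower at 2, which are 0.0453% and 0.0151% of all islands. The higher islands lie at Mnx1, Gpx7, Lhx3, Vipr1, Itgb4 and at a site of chromosome 15 with no named gene, and the lower ones at Phospho1 and Ptk7. After normexp background correction, chosen after seeing the data, 0 islands passed in limma (322 at an unadjusted p under 0.05), and the adjusted p of Gpx7 was 0.0539. At an unadjusted p under 0.05 there were 702 islands (5.3%), 514 higher (3.88%) and 188 lower (1.42%) in pancreas. This share is near the 1 in 20 that the threshold itself allows. Of these 702, 73.2% were higher in pancreas, but the direction turned when probes with a dim input were left out, where 89 of 405 (22%) were higher.

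**Figure D1:**
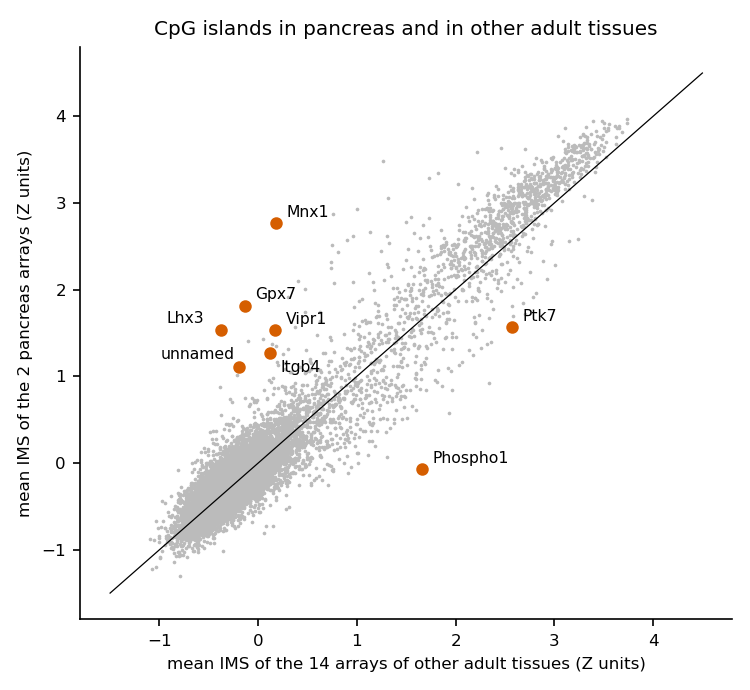
Mean IMS of each of 13238 islands (grey points) over the 2 pancreas arrays (vertical axis) and the 14 arrays of other adult tissues (horizontal axis), both in Z units, with the line of equal values. Orange points are the 8 islands that passed the test, 6 above the line and 2 below it, while most islands lie along the line.

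The same fit also gave the count for every other tissue against its own 7. Colon had 110 such islands, pancreas 8, and brain, kidney, liver, lung, muscle and spleen 0 each. Colon and pancreas are also the tissues whose arrays are all male and all on the larger of the 2 array grids. With grid as a block the pancreas count was 20, among them all 8 islands. With sex as a term it was 4, without Itgb4 (adjusted p 0.105), Vipr1 (0.105), the island of chromosome 15 (0.127) and Ptk7 (0.0646). With scan day as a random block, chosen after seeing the data, it was 6, without Itgb4 and the island of chromosome 15 (0.0799 each). On the male arrays alone all 8 islands passed among 342, in a fit where only pancreas and colon have replicates.

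The islands at Gpx7 and Lhx3 had the smallest adjusted p-values. Gpx7 encodes a glutathione peroxidase-like enzyme of the endoplasmic reticulum, the compartment where secreted proteins are folded. Lhx3 encodes a LIM homeodomain factor of the pituitary and of motor neurons. Both islands scored above 0.75 in both pancreas arrays and below it on all 14 others.

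The Gpx7 island has 6 probes between 107904174 and 107904844 of chromosome 4, in the coordinates of the array files, which name no genome build. It spans the start of the gene, from 175 bases before it to 449 after it. The 250 bases before the start in RefSeq (GRCm38.p6, chr4:108406714-108406963, minus strand) are shown because this is the 1 island of the 8 that lies over a start site, with each CG in capitals.
Gpx7: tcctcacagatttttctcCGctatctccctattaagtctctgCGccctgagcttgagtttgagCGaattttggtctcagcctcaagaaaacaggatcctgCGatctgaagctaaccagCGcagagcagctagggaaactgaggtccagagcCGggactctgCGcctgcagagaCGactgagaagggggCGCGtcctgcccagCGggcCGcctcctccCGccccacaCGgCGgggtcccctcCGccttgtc
This stretch holds 16 CG dinucleotides, and 25.4% of the 32851 stretches of the same kind in the table hold at least as many (median 6). CG is the same on both strands, and the start in RefSeq need not be the one the array files used.

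At Gpx7 the pancreas arrays scored 1.78 and 1.85. The 14 other arrays ran from -0.553 in liver replicate 1 over a median of -0.29 to 0.709 in colon replicate 2. No array of another tissue reached the pancreas values, and next in order stood both colon arrays and both spleen arrays. The difference was 1.95 ± 0.143 (SE), with an adjusted p of 0.00014 in limma. Pancreas differed from each of the 7 tissues taken singly, with adjusted p from 0.000398 against liver to 0.0477 against colon. All 6 probes were higher in pancreas, by 1.11 to 2.37, and at 5 of them both pancreas arrays lay above all 14 others. The exception is the probe farthest into the gene, where only replicate 2 was high. At 3 of the 6 probes the input was not well above background on at least 1 of the 16 arrays.

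The Lhx3 island has 12 probes between 26024022 and 26025376 of chromosome 2, within the gene and 3214 to 4521 bases after its start. The pancreas arrays scored 1.57 and 1.5. The other arrays ran from -0.707 in spleen replicate 1 over a median of -0.399 to 0.175 in brain replicate 2. The groups did not overlap, and 13 of the 14 others lay under 0. The difference was 1.92 ± 0.171 (SE), with an adjusted p of 0.000605 in limma, and pancreas differed from each of the 7 tissues singly. All 12 probes were higher in pancreas, by 1.06 to 2.8. A second island of Lhx3, of 4 probes over the gene's start, scored 0.173 and 0.0222 in pancreas against -0.513 to 1.29 in the others, and its difference of 0.239 did not pass (adjusted p 0.982).

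**Figure D2:**
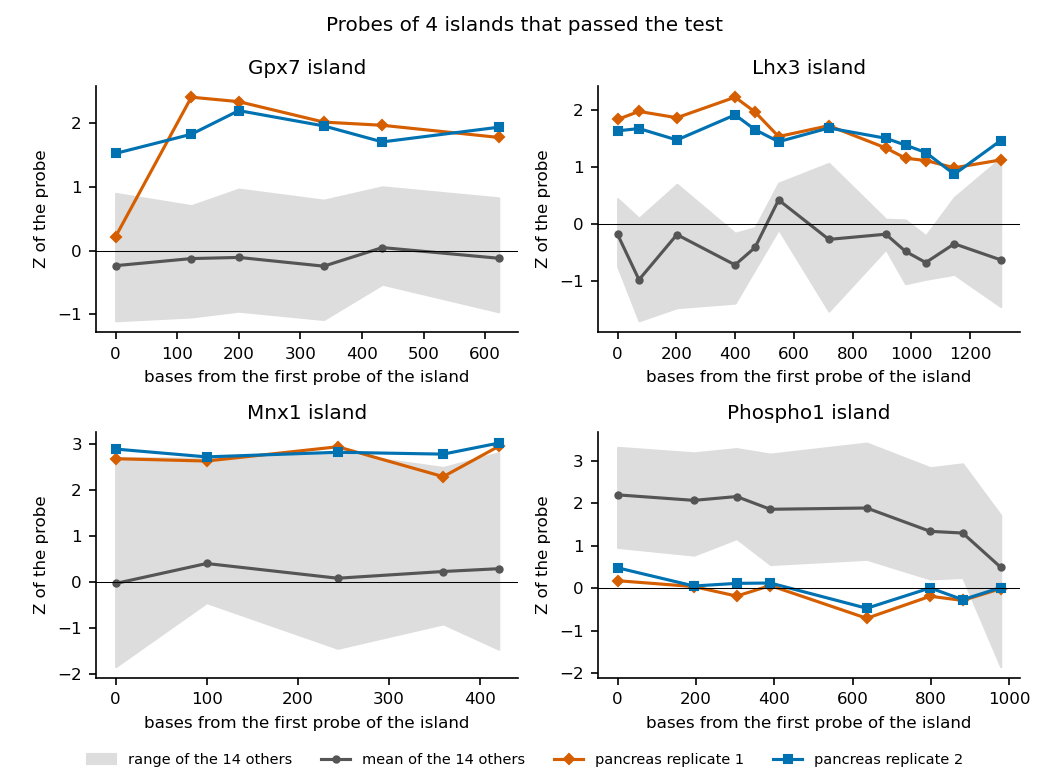
Z-score of each probe (vertical axis) by its distance in bases from the first probe of the island (horizontal axis) at the Gpx7, Lhx3, Mnx1 and Phospho1 islands. Coloured lines are the pancreas arrays, the dark line is the mean and the grey band the range of the 14 arrays of other tissues. Within each island all probes differ in the same direction, higher in pancreas at Gpx7, Lhx3 and Mnx1 and lower at Phospho1.

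The largest difference was at Mnx1, a homeodomain factor that β cells need. The island has 5 probes between 29804755 and 29805230 of chromosome 5, 4054 to 4479 bases after the gene's start and within it. Pancreas scored 2.69 and 2.84. The 14 others ran from -0.961 in brain replicate 1 over a median of -0.028 to 2.69 in colon replicate 1. Colon, with a mean of 2.33, shared the high score and overlapped pancreas, while muscle, the next tissue, had a mean of 0.293. The difference was 2.58 ± 0.278 (SE, adjusted p 0.00326 in limma), and pancreas passed against brain, kidney, liver, lung and spleen. Both neighbouring islands of the same gene did not follow. The island over its start scored -0.636 and -0.656 in pancreas against -1.02 to -0.386, and the one downstream -0.192 and 0.0237 against -0.825 to 0.202. At 4 of the 5 probes the input was not well above background on at least 1 of the 16 arrays.

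Itgb4 encodes integrin β4 of the hemidesmosomes, which anchor epithelial cells to their basement membrane. Its island of 4 probes lies 30069 to 30438 bases after the start (chromosome 11, 115820860 to 115821274). It scored 1.35 and 1.18 in pancreas against -0.242 to 0.515 with a median of 0.157 in the others, without overlap. The difference was 1.15 ± 0.167 (SE, adjusted p 0.0305 in limma). The island over the start of the same gene differed in the other direction. It scored -0.288 and -0.343 in pancreas, below all others at -0.16 to 0.591, with a difference of -0.437 that did not pass (adjusted p 0.913).

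The remaining higher islands did not meet the rule for named genes and were chosen after their values were seen. Vipr1 encodes a receptor of vasoactive intestinal peptide. Its island has 3 probes 26587 to 26836 bases after the start (chromosome 9, 121517973 to 121518271). It scored 1.23 and 1.83 in pancreas, and both colon arrays lay above these values, up to 2.5. The other 6 tissues had means from -0.35 in muscle to 0.154 in lung, so that colon and pancreas were the high tissues. The difference was 1.36 ± 0.192 (SE, adjusted p 0.0264 in limma). The island of 3 probes on chromosome 15 (36084911 to 36085248) scored 0.834 and 1.39 in pancreas against -0.525 to 0.346 in the others. These did not overlap, but the pancreas replicates lay 0.552 apart. Its difference was 1.3 ± 0.197 (SE, adjusted p 0.0401 in limma).

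Pancreas was the least methylated tissue at the islands of Phospho1 and Ptk7. Phospho1 encodes a phosphatase of bone mineralisation. Its island of 8 probes lies 5911 to 6892 bases after the start (chromosome 11, 95646478 to 95647506). It scored -0.139 and 0.00577 in pancreas. The 14 others ran from 0.593 in kidney replicate 1 over a median of 1.55 to 2.99 in brain replicate 2. Thus pancreas sat at the edge of the unmethylated range and 13 of the 14 others above 0.75. The difference was -1.73 ± 0.224 (SE, adjusted p 0.0167 in limma), and all 8 probes were lower in pancreas, by 0.491 to 2.48 in size. Brain and liver were the tissues that passed singly. The island at the promoter of the same gene scored -0.0381 and 0.0684 in pancreas, inside the range of -0.722 to 0.456 of the others.

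Ptk7 encodes a receptor-like protein of planar cell polarity without kinase activity. Its island of 4 probes lies 37481 to 37829 bases after the start (chromosome 17, 46054774 to 46055168). It scored 1.49 and 1.64 in pancreas, and the others ran from 2.29 over a median of 2.52 to 3.1. All 16 arrays lay above 0.75, so pancreas was lower within the methylated range. The difference was -1 ± 0.134 (SE, adjusted p 0.0181 in limma), and kidney and spleen passed singly.

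By the files' annotation 7 of the 8 islands lie inside a gene and 1 has no gene named, and 0 of the 2399 islands classed as promoter passed. Inside islands are 62.5% of all islands. None of the islands next to the 8 passed. Among the 7 that lie inside a gene, the distance from the start was over 3000 bases at 6, and Gpx7 was the exception. The share of all inside islands at such a distance was not counted, so no preference for distance can be read from this.

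Leaving out a pancreas array left 5 calls without replicate 1 and 2 without replicate 2. Gpx7 and Lhx3 passed without either pancreas array, with adjusted p of 0.0139 and 0.0345 without replicate 1 and of 0.0199 and 0.0446 without replicate 2, where the lone array is assumed to vary like the other groups. The other 6 islands passed in neither case. Without replicate 1 the adjusted p was 0.0593 for Mnx1 and Vipr1, 0.0934 for the island of chromosome 15, 0.204 for Phospho1, 0.226 for Ptk7 and 0.33 for Itgb4. With each of the 16 arrays left out in turn, Mnx1, Phospho1 and Ptk7 passed 14 times, Vipr1 11, Itgb4 8 and the island of chromosome 15 5 times.

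By a criterion without a model, both pancreas arrays lay above all 14 others at 217 islands and below all of them at 98. These are 1.64% and 0.74% of all islands, or 2.38% for the 315 together. Of the 315, 6 also passed limma's test, 4 higher and 2 lower. The 2 called islands outside this group are Mnx1 and Vipr1. Promoter islands made up 18.9% of those above and 8.16% of those below, beside 18.1% of all islands. With dim probes left out the balance turned to 30 above and 149 below, of 8747 islands.

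Pancreas tended to lie above the other tissues at islands with a mean score above 2 over the 16 arrays, a mean in which the pancreas arrays take part. Over the 842 islands with a mean score above 2 on the 16 arrays, the median difference was 0.278, and 50 (5.94%) lay above all others and 5 (0.594%) below, beside 1.64% and 0.74% of all islands. Over the 9656 islands with a mean below 0 it was 0.0215, beside 0.0277 over all islands. For the highly methylated islands the median was 0.199 with the median and MAD, 0.531 after normexp, 0.166 without dim probes and 0.0962 on the deposited table, and 0.876 on the log2 scale, which has another unit. At scores above 2 the shift was above 0 in each of these, and the cause of its differing size was not tested. It did not extend to the 585 islands with a mean of 0.75 to 2, where the median difference was -0.0118. There it was -0.0912 with the median and MAD, -0.293 after normexp and 0.209 on the log2 scale. Without dim probes and on the deposited table it was -0.191 each.

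The acinar factors came next, with 20 islands at 12 genes, all of which had an island. None passed the test. Since 0.0604% of all islands passed, lists as short as this one and those below would seldom hold a passing island. The median difference was 0.00224, and 3 were higher and 1 lower at an unadjusted p under 0.05, beside 3.88% and 1.42% of all islands. The islands with the largest differences lay at Rbpjl, Gata4 and Bhlha15. Rbpjl is the pancreas-restricted partner of Ptf1a in the acinar transcription complex. Its island of 7 probes 2120 to 2614 bases before the start scored 2.39 and 2.24 in pancreas, and the others ran from -0.00506 over 0.599 to 1.83. Both pancreas arrays lay above all others. The difference of 1.58 ± 0.297 (SE) did not pass, with an adjusted p of 0.129. A second Rbpjl island, 1209 to 1670 bases after the start, scored -0.666 and -0.773 in pancreas, within -0.929 to -0.0952.

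Bhlha15, also called Mist1, drives the secretory architecture of acinar cells. Its island of 4 probes 885 to 1231 bases after the start scored 1.72 in both pancreas arrays, and the others ran from 2.39 over 2.61 to 3.2. All 4 probes lay below all 14 others in both arrays. The difference of -0.98 ± 0.165 (SE) just missed the threshold, with an adjusted p of 0.0728. At Gata4, an endoderm factor of the early pancreas, the island of 3 probes 6279 to 6548 bases before the start scored 1.59 and 1.23. Both colon arrays, with a mean of 1.73, overlapped these values, and no array of the other 6 tissues passed 0.75. Its difference of 1.51 ± 0.259 (SE) had an adjusted p of 0.0798. The Gata4 island over the start scored 0.0275 and -0.103, above all others at -0.698 to -0.13, with an adjusted p of 0.913.

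Ptf1a itself, which drives acinar fate, had 1 island over its start. It scored -0.458 and -0.424 in pancreas against -0.835 to -0.247 in the others, and was in the unmethylated range on all 16 arrays. Nr5a2, a nuclear receptor of acinar cells, scored -0.608 and -0.486 against -1.19 to -0.341. Neither gene's score set pancreas apart, with differences of 0.0643 ± 0.147 and 0.156 ± 0.17 (SE).

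Most genes of digestive enzymes and other acinar products had no scored CpG island. Of 35 genes listed, Pla2g1b and Tmed11, a protein of secretory traffic and no enzyme, had 1 each, both downstream of the gene, and Cpa1 and Cela1 had none. Pla2g1b, the pancreatic phospholipase, scored 3.69 and 3.17 in pancreas against 1.36 to 3.42, a difference of 0.761 with an adjusted p of 0.93. The machinery of acinar secretion had 16 islands at 13 of 19 genes. None passed, and the median difference was -0.0834.

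The duct genes had 27 islands at 19 of 24 genes, of which none passed, with a median difference of -0.0179. Krt7, a keratin of duct epithelium, scored 1 and 1.26 in pancreas, below all others at 1.29 to 3.45, but with a spread among those that left the difference of -0.903 at an adjusted p of 0.954. Sox9, a duct and progenitor factor, had 2 islands. The one within the gene scored 0.494 and 0.549 in pancreas, while the others ran from 0.216 in colon replicate 1 over 0.945 to 2.18 in brain replicate 1, so that both colon arrays, 1 kidney array and 1 liver array lay lower. The difference of -0.646 ± 0.483 (SE) was within this spread.

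The islet factors had 42 islands at 20 of 25 genes. Mnx1 was the 1 that passed, and the list's median difference was 0.084. Nkx2-2, needed for β cells, had 4 islands. The island of 4 probes 1596 to 1896 bases before its start scored 0.435 and 0.966 in pancreas and from -0.532 over -0.273 to 0.00725 in the others. Pancreas lay above all others, with 1 array above and 1 below 0.75. The difference of 0.967 ± 0.171 (SE) had an adjusted p of 0.0912. A larger island of 14 probes farther upstream lay above all others too, at 0.0468 and 0.134 against -0.574 to 0.0183, with an adjusted p of 0.76.

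At Pdx1, the master factor of the pancreas, the island at the start scored -0.466 and -0.689 in pancreas. The others ran from -0.681 over -0.209 to 0.859, and only the colon arrays, with a mean of 0.689, lay above 0.5. The difference of -0.471 ± 0.165 (SE) had an adjusted p of 0.911. Neurod1 and Nkx6-1, factors of β-cell maturation, had 2 islands each. Those within the genes scored 0.198 and 0.187 at Neurod1 against -0.74 to 0.425, and 0.34 and 0.349 at Nkx6-1 against -0.577 to 0.694. Those over the starts scored 0.11 and -0.38 at Neurod1 against -0.905 to 0.295, and -0.178 and -0.00208 at Nkx6-1 against -0.663 to 0.178. At each of these islands both pancreas arrays lay inside the range of the other tissues. Single probes of the Neurod1 island within the gene differed between the pancreas replicates, with 0.842 and -0.265 at 1 of them. Ins2 had no scored island.

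**Figure D3:**
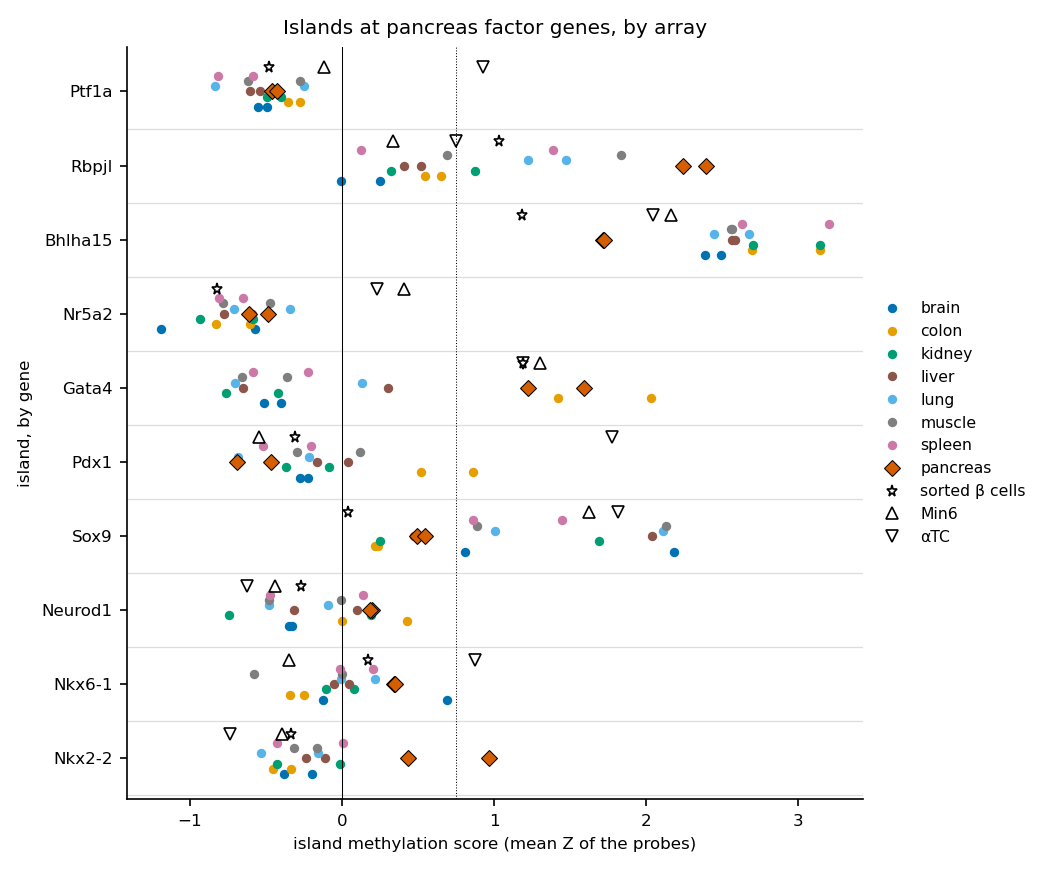
IMS (horizontal axis, mean Z of the probes) on every adult array at 1 island each of 10 factors of the pancreas (vertical axis), with symbols and lines as in the plot of the islands that passed. Pancreas lies above all 14 others at Rbpjl and Nkx2-2 and below all at Bhlha15, and overlaps them at Ptf1a, Nr5a2, Gata4, Pdx1, Sox9, Neurod1 and Nkx6-1. Each island is that of the gene's largest difference, and Nkx2-2 was added after its values were seen. Of all islands, 2.38% had both pancreas arrays beyond all 14 others.

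The genes of islet secretion had 16 islands at 12 of 30 genes, of which none passed, with a median difference of 0.134. The endoderm factors had 41 islands at 22 of 27 genes, none of which passed, and a median difference of 0.035.

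No island passed in any of the 13 lists of other cell types and functions. An island of Nphs1, in the kidney list, scored 2.08 and 2.11 in pancreas, above all others at -0.344 to 1.35. Its adjusted p was 0.0728 in limma, and 7 of all islands had one between 0.05 and 0.1. The median differences of the 13 lists ran from -0.178 for Hox genes to 0.292 for imprinted genes, beside 0.0277 for all islands. The Hox list had 66 islands at 37 genes, 5 of them lower and 0 higher at an unadjusted p under 0.05. The imprinted list had 30 islands at 22 genes, 4 higher and 0 lower by the same measure, beside 3.88% higher and 1.42% lower of all islands, and the germline list 17 islands with a median of 0.197. The imprinted and germline islands had median scores of 2.3 and 2.73 in the other tissues. Whether their median differences go with the shift of pancreas at islands above 2 was not tested. Markers of other cells that a whole organ can hold gave no passing island, where 0.0604% of all islands passed. Their median differences were -0.00511 for blood cells, -0.0103 for stroma and vessels and -0.0133 for nerve.

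**Figure D4:**
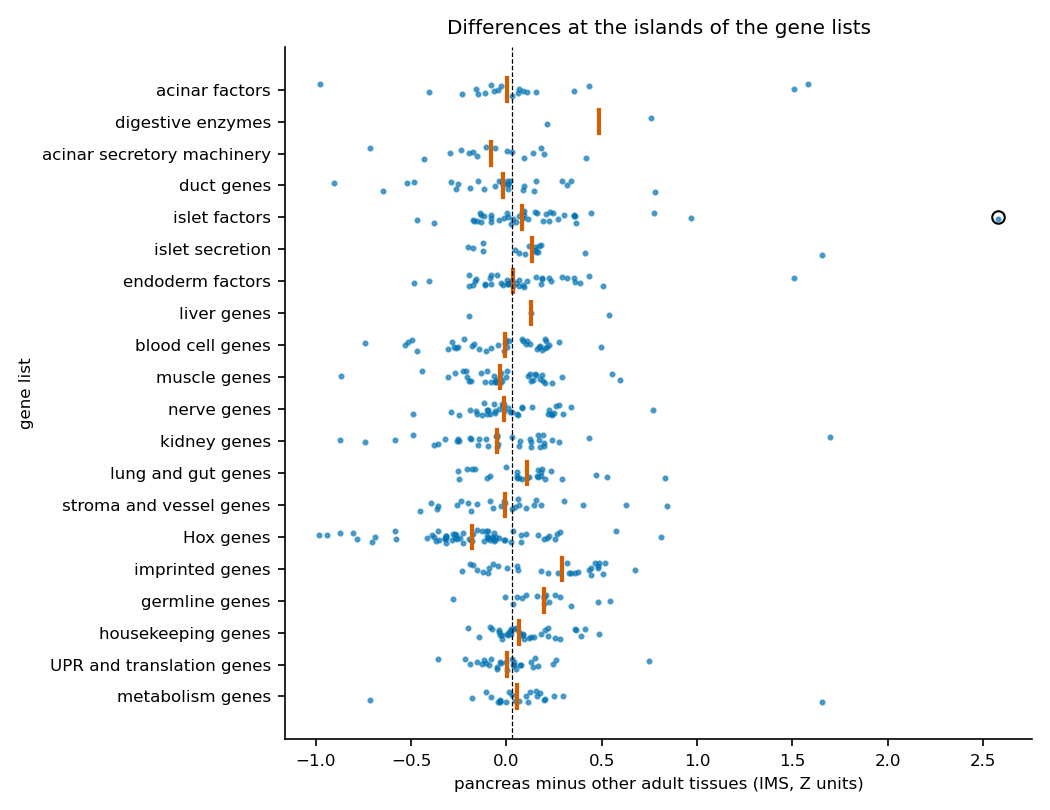
Difference in IMS between pancreas and the mean of the other 7 tissues (horizontal axis, Z units) at each island of the 20 gene lists (vertical axis), with each list's median as an orange bar and the median of all islands as a dashed line. The circled point, at 2.58, is Mnx1, the 1 island of the lists that passed.

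Single tissues differed in how many islands separated them from pancreas. Against colon 14 islands passed (0.106% of those tested), against lung 4 (0.0302%), against muscle 3 (0.0227%) and against brain, kidney, liver and spleen 5 each (0.0378%). Whether these numbers differ between tissues was not tested. Of the 14, 12 were lower in pancreas, and they were chosen here after their values were seen. Foxa2, a factor that opens chromatin in endoderm, had 2 of them. The downstream island scored -0.48 and -0.237 in pancreas and 1.97 and 1.84 in colon, a difference of -2.27 (adjusted p 6.22e-05 in limma). The island of 25 probes within the gene scored -0.439 and -0.452 against 0.612 and 0.496, a difference of -1. Pitx1, a hindlimb and pituitary factor, scored -0.0617 and 0.0303 against 2.75 and 2.39. At both Foxa2 islands both pancreas arrays lay below 0, at Pitx1 they lay on either side of it, and the colon arrays lay above the pancreas arrays at all 3. Against the mean of all other tissues the Foxa2 differences were 0.035 downstream and -0.176 within the gene. Neither passed (adjusted p 0.993 and 0.974 in limma). The medians of the other arrays were -0.726 and -0.379 at these islands. At Pitx1 the lowest other array had -0.395, below both pancreas arrays. Low scores at these islands were thus not particular to pancreas.

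Purified and cultured pancreatic cells of the series were set beside the pancreas at the 8 islands, each on 1 array and without a test. Over all islands these arrays often lay beyond the 14 others, above them at 13.2%, 16.9% and 20.8% of islands in β cells, Min6 and αTC and below them at 10.7%, 26.4% and 35%. These are β cells sorted from islets of Pdx1-GFP mice by insulin, the insulinoma line Min6 and the α-cell line αTC (aTC in the labels). At Gpx7 they scored 1.52, 1.81 and 1.64 in this order, all above the 14 other adult arrays and close to the pancreas values of 1.78 and 1.85. At Mnx1 they scored 2.02, 2.28 and 1.88. Sorted β cells scored above 0.75 at both islands.

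At Lhx3 sorted β cells scored 0.164 and Min6 0.0629, within the range of other tissues and far below the pancreas values of 1.57 and 1.5. The αTC array had 0.848. The island of chromosome 15 gave 0.0971 in β cells, and the cell lines 1.85 and 1.73. At Vipr1 the β cells had 0.335 against 1.95 and 1.54 in the lines. At these 3 islands whole pancreas was higher than sorted β cells, and at Itgb4 too, where β cells had 0.513, Min6 0.578 and αTC 1.27.

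At the lower islands β cells followed pancreas. Phospho1 scored -0.366 in β cells, below all 14 other adult arrays, 0.572 in Min6 and 2.04 in αTC. Ptk7 scored 1.25, 0.758 and 0.746. The acinar factor genes gave 1.03 in β cells at Rbpjl and 1.19 at Bhlha15, and Nkx2-2 gave -0.333, beside 0.435 and 0.966 in whole pancreas.

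The 5 embryo arrays scored below 0.5 at all 6 islands that were higher in pancreas. The embryos are single arrays of different stages and of both sexes, so an SD over them is a spread over stages and not between replicates. Their means were -0.489 at Gpx7 (SD over the 5 stages 0.233), -0.413 at Lhx3 (SD 0.0904) and -0.314 at Mnx1. At Phospho1 their mean was -0.547, below pancreas, and at Ptk7 it was 3.08. Endoderm cultures from ES cells scored 1.13 and 0.547 at Gpx7 and 0.776 and 0.739 at Lhx3. The array that shared the slide of pancreas replicate 1 is an endoderm culture, and that of replicate 2 undifferentiated ES cells. Within these slides pancreas was higher by 1.23 and 2.22 at Gpx7, by 0.835 and 1.28 at Lhx3 and by 1.92 and 2.19 at Mnx1. At Phospho1 the differences were -1.11 and 0.345, with ES cells low as well.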

How the data were processed

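The authors hybridised bound (Cy5) and input (Cy3) DNA to Agilent mouse CpG island arrays and extracted spots with Feature Extraction 10.5.1.1. The deposited scanner files hold the intensity of both channels and the log10 ratio of bound over input. The authors' deposited table holds Z-scores per probe, a score that was used as an alternative. The files name no genome build. Control spots and flagged spots were left out and the log10 ratios of each array were turned into Z-scores. Probes no more than 500 bases apart were joined into islands. Of 11355 gene names, 8887 are current symbols, 2325 were updated by accession and 81 by synonym. One mean per tissue was fitted to 16 arrays by limma's lmFit and eBayes (limma 3.58.1, R 4.3.3), with pancreas against the mean of 7 tissues. The fit was also run on simulated data, in which the other tissues had equal means and the noise was independent. That run held no effect of sex, grid or scan day, so it does not test how the fit handles these. Python 3.11.15, numpy 2.4.6 and pandas 2.3.3 served for the rest. The number of arrays limits the precision.

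The named genes are the 15 islands with the largest differences in each direction that passed and did not overlap the others, passing islands of the pancreas and endoderm lists, up to 4 from each other list, and Ptf1a, Rbpjl, Bhlha15, Nr5a2, Gata4, Pdx1, Sox9, Cpa1, Cela1, Neurod1, Nkx6-1 and Ins2, with 1 island per gene, that of the largest difference. Other islands, Nkx2-2, Krt7 and Pla2g1b among them, were chosen after their values were seen. The comparison, the members and the gene lists were chosen with earlier results of these data known. Alternatives covered scaling, background, dim probes, island definition, sex, batches and the arrays in the fit. Normexp on mean signals was not run, since some files hold median signals only.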

Additional observations from a re-analysis of the deposited data

Results flagged for a closer look

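At the islands described, the arrays of purified and cultured cells lay beyond all 14 arrays of the other adult tissues on the side of pancreas in 13 of 24 values, each from 1 array and without a test. The islands were chosen for a difference in pancreas, and over all islands sorted β cells, Min6 and αTC lay above all 14 others at 13.2%, 16.9% and 20.8% and below them at 10.7%, 26.4% and 35%. At Gpx7 these were sorted β cells (1.52), Min6 (1.81) and αTC (1.64), where the highest other array had 0.709. At Lhx3 it was αTC (0.848). At Itgb4 they were Min6 (0.578) and αTC (1.27), and at the island of chromosome 15 Min6 (1.85) and αTC (1.73). On the low side they were sorted β cells (-0.366) and Min6 (0.572) at Phospho1, and sorted β cells (1.25), Min6 (0.758) and αTC (0.746) at Ptk7.

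Of the 18 islands checked, those that passed and those of the named factors, 3 had 1 of the 5 embryo arrays far from the other embryos. These arrays are of different stages and not replicates, so how often such a gap arises by chance is not known. The highest embryo had -0.13 at Phospho1, next to -0.583, and -0.0963 at Ptf1a, next to -0.494. The lowest had -0.0405 at Rbpjl, next to 0.321.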

How the results depend on the processing

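All 8 passing islands kept their direction under every alternative in which they were scored. The count of 8 became 20 with the array grid as a block, 342 on male arrays alone, 5 with dim probes left out or without kidney, 4 with at least 5 probes or with sex as a term and 3 with the median and MAD, and leaving out 1 array at a time gave 2 to 11, with 5 without colon replicate 2 or pancreas replicate 1 and 2 without pancreas replicate 2. Of the 5 without kidney and the 5 without dim probes all were among the 8. The t-test of the study's methods, used there for somatic tissues against ES cells, gave 736 islands at an unadjusted p under 0.05. After Benjamini-Hochberg adjustment 3 passed it, at Lhx3, Itgb4 and Nkx2-2. The rest of the 8 islands, Gpx7 among them, did not pass it. After normexp background correction, chosen after seeing the data, 0 passed in limma (322 at an unadjusted p under 0.05), and Gpx7 had an adjusted p of 0.0539, Mnx1 0.079 and Lhx3 0.149. The unadjusted islands were 83.4% higher on the log2 scale, 59.6% with the median of the probes, 61% on the deposited table and 60.9% on male arrays, beside 73.2%. Islands where pancreas lay beyond all others (315) became 109 on the deposited table (6654 islands), 179 without dim probes, 189 with at least 5 probes, 152 after normexp and 974 on male arrays, and 326 to 1761 with 1 array left out, the most without pancreas replicate 1 (1643 without replicate 2). With the median of the probes the split was 152 above and 118 below. The difference in islands above 0.75 (-15.7) turned to 214 on the log2 scale, 10 without colon, 0.917 without spleen and 3.93 at a threshold of 0.5, and ran from -136 to 105 with 1 array left out. That in islands below 0 (-192) turned to 540 without dim probes, 844 after normexp and 59.8 on male arrays, and ran from -355 to -29.8. No p of these was under 0.05. Ptf1a's difference turned to -0.018 on the deposited table, -0.00579 with the median of the probes, -0.0357 without dim probes and -0.0024 with sex as a term. The causes were not tested. The replicate block gave 10 islands, the 8 among them, and correlations of same-numbered arrays over 28 pairs of tissues ran from -0.32 to 0.488, 11 of them over 0.1, so the numbers were not taken as pairs. Slide as a random block gave 8 and scan day as a random block, added later, 6. Scan day as a fixed block, slide over all 34 arrays and the software version (1 among these arrays) could not be fitted. With 2 pancreas arrays, a difference that did not pass is not shown to be absent.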
